A study of Homo sapiens and Mus musculus with 22 samples.

Results

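The H3K9 demethylases and the HUSH complex were followed through the RNA tables of this series as 10 genes. They were KDM4A, KDM4B, KDM4C, KDM3A, KDM3B and JMJD1C on the demethylase side, and MPHOSPH8, FAM208A (now named TASOR), PPHLN1 and MORC2 on the HUSH side. They were chosen by name from the 34015 gene symbols of the 3 tables, ignoring case. All 10 were found in both human tables and 9 in the mouse table, which has no row named Morc2. The series holds 22 samples, of which 14 are RNA samples and 8 are chromatin immunoprecipitation samples that were not analysed here. FPKM, used throughout, is a level per length of transcript, scaled to the fragments of a library.

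U2OS cells come from a human osteosarcoma, and L929 cells are mouse fibroblasts; both are established lines. The SETDB1 set held mock U2OS cells of 3 kinds, wild type (WT), SETDB1 KO1 and SETDB1 KO2, with 2 libraries each, and both knockouts were compared with the same WT libraries. The ATG5 set held U2OS cells with a vector or with an ATG5 knockdown (ATG5.KD), each mock or given BIX-01294 (BIX), a small molecule that inhibits the H3K9 methyltransferases EHMT2 (G9a) and EHMT1 (GLP). It has 1 value for each of its 4 groups, which per the labels stands for 2 replicates. The cGAS set held L929 cells, cGAS WT or cGAS KO, each mock or given BIX, with 1 library for each of its 4 groups. BIX was used at 10 µM for 12 h. A protocol note shared by the RNA samples describes BIX for all cells, whereas part of the sample names read mock. The names were used here, and what mock cells were given is not stated in the sources used here. Neither is whether a knockout is 1 clone, nor whether replicates came from separate cultures, so p-values measure the spread between these samples only.

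Methylation of lysine 9 of histone H3 (H3K9) marks silent chromatin, and it is written by methyltransferases such as SETDB1, EHMT1 and EHMT2. KDM4 enzymes are oxygen-dependent JmjC dioxygenases that remove the trimethyl and dimethyl forms of the mark, whereas KDM3 enzymes remove the dimethyl and monomethyl forms. HUSH works in the opposite direction: MPHOSPH8 binds H3K9 trimethylation through its chromodomain, FAM208A is the scaffold, PPHLN1 (periphilin) is the remaining core subunit, and the complex brings in SETDB1 and the ATPase MORC2 to silence retroelements, transgenes and some genes.

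The sum of FPKM per library ran from 445281 to 564049.5. Read counts were not used here, and relative depth could be read only from the steps of low values. By those steps the cGAS KO mock library was deeper than the cGAS WT BIX one, which had 0.738 of its reads. SETDB1 itself, the targeted gene, had a mean FPKM of 9.65 ± 0.464 (SD, n = 2 in each group) for WT, of 7.12 ± 0.321 for KO2 and of 6.46 ± 0.797 for KO1. SETDB1 fell by 0.45 in the mean of both knockouts (log2, SE 0.109, limma adjusted p = 0.0432). Neither knockout passed on its own, with -0.52 in KO1 (limma adjusted p = 0.0569) and -0.39 in KO2 (adjusted p = 0.203). ATG5 RNA read 11.3 FPKM with the vector and 10.1 with the knockdown in mock cells, but 12.3 and 13.4 with BIX, so the value labelled ATG5.KD BIX goes against its label at the level of this RNA. The cGAS gene, listed as Mb21d1, read 2.82 FPKM in mock WT and 1.19 in mock KO cells of L929, and 3.47 and 4.41 with BIX, which likewise goes against the label of the cGAS KO BIX library. Whether these 3 genes' reads lie in an edited or targeted stretch was not examined. Of 12 mesenchymal markers, 10, 9 and 9 reached 1 FPKM in every library of the SETDB1, ATG5 and cGAS tables, and Thy1 was listed at 0 in L929. The WT and KO cells of L929 were not alike in the mesenchymal markers. In mock cells Col1a2 read 49.4 FPKM in WT and 486 in KO, Fn1 18.6 and 348, and Col3a1 1.10 and 43.5. Col5a1 differed less, at 41.9 and 59.1. The sum of the mesenchymal markers ran from 4836 to 6755 FPKM over the L929 libraries. Of 7 epithelial markers 4 reached 1 FPKM in every library of both U2OS tables, and none did in L929. Haematopoietic markers summed to at most 3.22 FPKM in U2OS, and in L929 to between 8.34 and 81.6, led by Cd68 at 41.2 and 5.11 FPKM in the WT and KO mock libraries and at 80.3 and 29.6 with BIX.

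The promoters of 3 demethylases are printed because JMJD1C and KDM3A rose with BIX in both lines and KDM4C was the other member with an AP-1 match. Each line gives the 250 bases before a start site, taken from RefSeq on GRCh38.p14, 5′ to 3′ on the gene's strand. The windows are chr10:63521891-63522140 on the minus strand for JMJD1C, chr2:86441121-86441370 on the plus strand for KDM3A and chr9:6757723-6757972 on the plus strand for KDM4C. Capitals mark matches on either strand to the AP-1 motif TGACTCA or to the core of the hypoxia response element, ACGTG or GCGTG. The first starts of JMJD1C (1 of 3) and KDM3A (1 of 2) are shown.
JMJD1C: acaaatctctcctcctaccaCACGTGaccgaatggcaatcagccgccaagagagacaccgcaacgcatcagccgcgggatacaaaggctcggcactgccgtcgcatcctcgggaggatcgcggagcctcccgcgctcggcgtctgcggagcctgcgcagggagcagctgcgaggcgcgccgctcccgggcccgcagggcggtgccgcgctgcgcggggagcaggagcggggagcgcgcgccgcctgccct
KDM3A: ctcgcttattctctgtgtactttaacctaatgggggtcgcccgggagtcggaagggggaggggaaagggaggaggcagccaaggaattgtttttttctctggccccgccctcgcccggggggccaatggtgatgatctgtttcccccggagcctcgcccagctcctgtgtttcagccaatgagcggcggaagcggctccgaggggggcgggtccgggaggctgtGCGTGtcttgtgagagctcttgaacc
KDM4C: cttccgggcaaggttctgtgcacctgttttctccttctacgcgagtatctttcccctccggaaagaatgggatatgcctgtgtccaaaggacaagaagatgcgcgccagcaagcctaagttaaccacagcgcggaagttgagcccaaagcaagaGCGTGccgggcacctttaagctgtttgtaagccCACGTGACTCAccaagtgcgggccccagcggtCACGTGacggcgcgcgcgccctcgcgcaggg

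The KDM4C window holds a CACGTG palindrome that shares letters with its AP-1 match 59 bases before the start, and a second palindrome 31 bases before it. A palindrome reads as ACGTG on both strands. The JMJD1C window holds 1 palindrome, 230 bases before the start, and the KDM3A window 1 GCGTG, 26 bases before it. An AP-1 match was also found 40 bases before the second KDM3A start. Hypoxia cores were not particular to the printed genes. They were also matched in the windows of KDM4A, KDM4B and FAM208A, and KDM4A and KDM4B were lower with BIX on average without passing. The later JMJD1C starts and the windows of KDM3B, MPHOSPH8, PPHLN1 and MORC2 held none. Among all 35116 RefSeq windows of this length, 4.2% held the AP-1 motif and 43.2% held either hypoxia core. The cAMP response element TGACGTCA, in 1.65% of all windows, and the ATF4 motif TGATGNAA, in 3.14%, were not matched in any of the 16 windows of the 10 members. GC content was 72.0% for JMJD1C, 62.4% for KDM3A and 59.2% for KDM4C, beside a median of 58.0% over all windows, and CpG numbers were 35, 16 and 21 beside a median of 11. Which start these cells use was not examined, and a match is only a description of the letters.

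Every member was expressed at 1 FPKM or more in every library of its table. In WT U2OS cells PPHLN1 had the highest level at 50.7 ± 0.609 FPKM (SD, n = 2), followed by KDM4A at 27.0 ± 0.644 and FAM208A at 14.8 ± 0.205. JMJD1C (12.5), MORC2 (11.4), KDM3A (11.0) and KDM3B (11.0) lay close together, and the ranges of KDM3B and of each of MORC2 and KDM3A overlapped. MPHOSPH8 at 8.96 and KDM4B at 8.69 could not be separated either, and KDM4C was lowest at 3.11 ± 0.121. In L929 cGAS WT mock cells, whose table was normalized separately, the order was another one. Kdm4a led at 19.3 FPKM, followed by Pphln1 at 17.4 and Mphosph8 at 14.7, and Fam208a was last of the 9 at 1.46.

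After knockout of SETDB1, the methyltransferase that HUSH brings to chromatin, none of the 6 demethylases passed the test and their values overlapped with WT. The largest differences among the 10 genes were on the HUSH side, in FAM208A and MORC2. Both were higher in all 4 knockout libraries than in both WT libraries but did not pass the test across all genes. How many of all genes separate in this way was not counted, so the separation is only a description of these values. With limma on log2(FPKM + 1) and Benjamini-Hochberg adjustment over 12612 genes, 0 of 10 members passed 0.05 for the mean of both knockouts against WT, where 3.23% of all genes did. At an unadjusted limma p below 0.05 there were 2 members, FAM208A and MORC2, among 1492 of the 12612 genes. In RNA of whole cultures, fewer cells with a transcript and less of it per cell cannot be told apart.

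FAM208A stood at 14.6 and 14.9 FPKM in WT, 20.3 and 20.6 in KO1, and 17.3 and 21.4 in KO2. Both WT libraries lay below all 4 knockout libraries, and the lower KO2 library was the nearest to them. The difference of the knockout mean from WT was 0.40 on the log2 scale (SE 0.103, limma adjusted p = 0.0639), with 0.44 in KO1 (adjusted p = 0.0963) and 0.36 in KO2 (adjusted p = 0.228). Over 14 alternatives the limma adjusted p ran up to 0.262, and 2 passed. These were the fit without KO2 replicate 1, the library at 17.3 FPKM, and the fit with the replicate number as a block. Without that library the difference was 0.47, and KO2 was left with 1 library. The labels do not say that a replicate number marks a shared batch.

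MORC2, the ATPase that compacts chromatin at HUSH targets, stood at 11.3 and 11.4 FPKM in WT, 13.8 and 14.3 in KO1, and 14.2 and 16.1 in KO2. Here too the WT libraries lay below every knockout library. Its difference was 0.33 for the knockout mean (SE 0.0973, limma adjusted p = 0.113), 0.28 in KO1 (adjusted p = 0.399) and 0.38 in KO2 (adjusted p = 0.147). It passed in none of the 14 alternatives, whose adjusted p ran from 0.0698 to 0.461.

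The other HUSH core genes overlapped between groups. MPHOSPH8, the H3K9 reader, stood at 8.14 and 9.77 FPKM in WT, 8.52 and 10.3 in KO1, and 8.16 and 9.21 in KO2 (log2 difference 0.01, SE 0.118, limma adjusted p = 0.982). PPHLN1 stood at 50.3 and 51.2 FPKM in WT, 47.4 and 50.6 in KO1, and 53.3 and 46.9 in KO2 (-0.04, SE 0.0922, limma adjusted p = 0.943). The MPHOSPH8 ranges overlapped, and the PPHLN1 knockout values lay on both sides of the WT values.

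Among the demethylases the largest difference was that of JMJD1C, a large KDM3-family protein whose own activity on H3K9 is debated. It stood at 13.1 and 11.9 FPKM in WT, 13.0 and 14.7 in KO1, and 13.0 and 16.5 in KO2. The lower WT library lay below all knockout libraries and the higher one did not, and the difference was 0.17 (SE 0.114, limma adjusted p = 0.666). KDM4A stood at 26.5 and 27.4 FPKM in WT, against 27.3 and 30.3 in KO1 and 26.9 and 29.1 in KO2. KDM4B stood at 9.03 and 8.34 in WT, against 7.77 and 8.04 in KO1 and 8.49 and 7.75 in KO2. These 2 genes and KDM4C, KDM3A and KDM3B overlapped with WT, with log2 differences between -0.10 (KDM4B, limma adjusted p = 0.801) and 0.07 (KDM4A, adjusted p = 0.862).

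The separate knockouts gave the same count of 0 of 10 members, where limma called 2.41% of genes for KO1 and 2.43% for KO2. They share their WT libraries, so one is not a repeat of the other. Between KO1 and KO2 limma called 0% of genes, 205 genes had an unadjusted p below 0.05, and no member was among them. The median log2 difference of the 10 members was 0.05 and that of all genes -0.01.

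**Figure D1:**
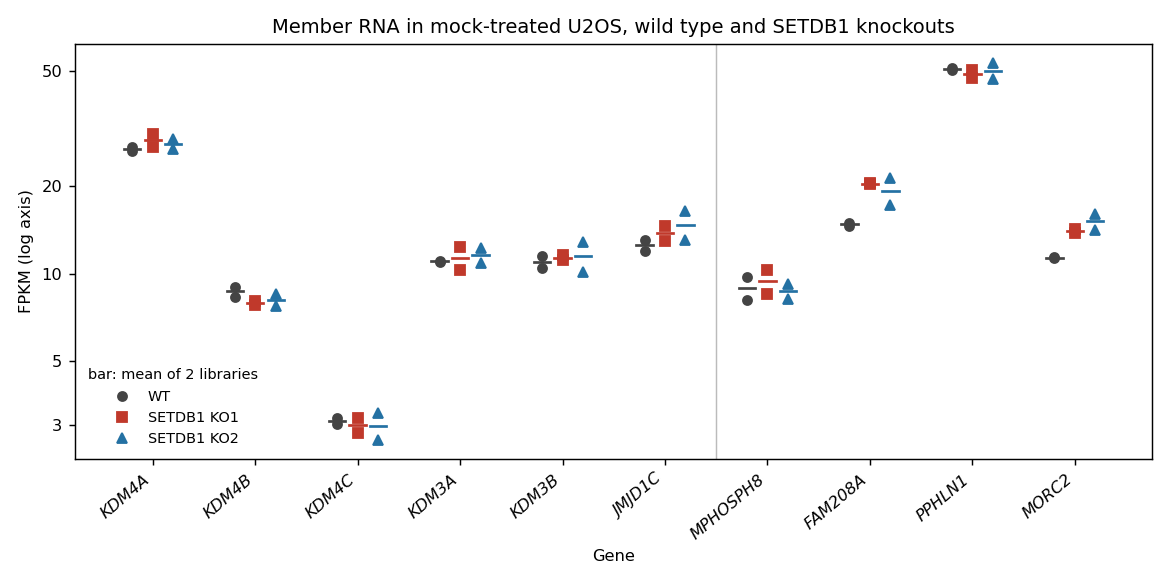
FPKM (log axis) of the 10 genes in mock U2OS cells; each point is 1 library, circles WT, squares SETDB1 KO1 and triangles SETDB1 KO2, and the short bar is the mean of 2 libraries. FAM208A and MORC2 are the genes whose WT points lie below all 4 knockout points, with 14.9 against 17.3 FPKM at the closest for FAM208A.

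Of 17 tested H3K9 methyltransferases and partners, 2 were higher and 1, SETDB1, was lower, where 3.23% of all genes passed. ATF7IP, the partner that stabilises SETDB1, stood at 14.3 FPKM in both WT libraries, at 34.3 and 31.7 in KO1 and at 30.3 and 40.9 in KO2. It rose by 1.20 (SE 0.116, limma adjusted p = 5.5e-05), and ATF7IP2 rose by 0.77 (limma adjusted p = 0.011). None of 5 tested other H3K9 demethylases, 17 other lysine demethylases and JmjC genes, or 9 relatives and RNA partners of HUSH passed, and of 21 targets of the hypoxia-inducible factors only DDIT4 did, which fell by 0.62 (limma adjusted p = 0.00657).

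BIX for 12 h was accompanied by more RNA of JMJD1C and KDM3A in both lines and in each of the 4 genetic backgrounds. JMJD1C reached between 20.7 and 44.0 FPKM from mock levels below 10 FPKM, and KDM3A, which removes the dimethyl mark that EHMT2 writes, reached between 19.3 and 37.4 FPKM from mock levels of 10.3 to 11.4. The KDM4 genes differed in both directions and none passed. On the HUSH side no gene passed in both lines, and FAM208A differed between them. Markers moved with BIX too. Of 10 mesenchymal markers tested, 5 fell in U2OS (median -0.36), and in L929 6 of the 9 above 0 fell (median -0.51), COL1A1, COL5A1 and VIM in both lines. Of all genes above 0 in the line, 41.4% and 43.6% passed in either direction. Among these calls, THY1 and LUM in U2OS and COL1A2 in L929 were at or near 0 in the other line. For them that line added little to the shared spread. Of 4 epithelial markers tested, the keratin genes KRT18 and KRT8 rose in U2OS (0.56 and 0.34) and CLDN4 fell (-0.38). In L929 KRT8 and CLDN4 rose (0.88 and 0.49) from near 0, Krt8 from 0.217 to 1.16 FPKM in WT and from 0.107 to 1.12 in KO cells. The part of these shifts, and of Cd68, in the results was not tested.

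JMJD1C went from 9.89 to 29.2 FPKM in vector cells, from 9.94 to 44.0 in ATG5.KD cells, from 8.74 to 20.7 in cGAS WT cells and from 7.33 to 27.3 in cGAS KO cells. In each table both BIX values lay above both mock values. How many of all genes did so was not counted, and 22.9% of genes were higher with BIX in 4 of 4 backgrounds. The log2 differences were 1.47, 2.04, 1.15 and 1.76, and these placed JMJD1C at rank 271 of 12566 genes, 153 of 12602, 622 of 11078 and 422 of 11377, counted from the most increased. Over the 4 backgrounds it rose by 1.61 (SE 0.173, limma adjusted p = 0.00685).

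KDM3A went from 10.5 to 19.3 FPKM in vector cells, from 10.3 to 19.4 in ATG5.KD cells, from 11.4 to 26.6 in cGAS WT cells and from 11.2 to 37.4 in cGAS KO cells. In each table both BIX values again lay above both mock values, which was likewise not counted over all genes. The log2 differences were 0.82, 0.85, 1.15 and 1.65, and over the 4 backgrounds it rose by 1.12 (SE 0.173, limma adjusted p = 0.0118). By the test of the difference between the lines, the U2OS response minus the L929 response was -0.56 for KDM3A (SE 0.21, limma adjusted p = 0.112) and 0.30 for JMJD1C (SE 0.305, adjusted p = 0.491).

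Over the 4 backgrounds 2 of 9 members passed, JMJD1C and KDM3A, where limma called 21.7% of 10108 genes (11.7% higher). The backgrounds are not independent, since 2 share each line. With the line as a correlated block the estimated correlation was 0.691, limma called 64 of 10108 genes and no member, and the adjusted p was 0.0629 for JMJD1C and 0.0846 for KDM3A. Without the ATG5.KD background KDM3A had a difference of 1.21 and a limma adjusted p of 0.0525. Over 12 alternatives the adjusted p ran from 0.00503 to 0.0629 for JMJD1C and from 0.00915 to 0.0846 for KDM3A, and both differences stayed positive.

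Within U2OS, with the genotypes as replicates and a spread shared with L929, the same 2 of 9 members passed, where limma called 41.1% of genes. Within L929 there were 4 of 9, where it called 41.5% (19% higher). These fits hold 80 genes listed at 0 in all U2OS values and 491 at 0 in all L929 values, none of them a member. Without such genes, an alternative chosen after seeing the data, the counts were 3 of 9 with KDM4B in U2OS and 5 of 9 with PPHLN1 in L929. JMJD1C rose by 1.76 in U2OS (SE 0.216, limma adjusted p = 0.00702) and by 1.46 in L929 (SE 0.216, adjusted p = 0.00956), and KDM3A by 0.84 (SE 0.149, adjusted p = 0.0149) and 1.40 (SE 0.149, adjusted p = 0.00554).

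KDM3B, the third KDM3 gene, went from 11.0 to 13.9 FPKM in vector cells, from 11.0 to 11.6 in ATG5.KD cells, from 7.29 to 9.57 in cGAS WT cells and from 7.72 to 13.1 in cGAS KO cells. It was higher with BIX in 4 of 4 backgrounds, least in ATG5.KD cells. It rose by 0.52 in L929 (SE 0.138, limma adjusted p = 0.039), and its difference in U2OS was 0.20 (SE 0.138, adjusted p = 0.313). The L929 call was lost when genes of low FPKM were kept in the test (limma adjusted p = 0.0651, within 0.0316 to 0.0651 over 7 alternatives).

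KDM4C, a gene amplified in some tumours, went from 3.45 to 5.11 FPKM in vector cells, from 4.16 to 6.06 in ATG5.KD cells, from 6.42 to 6.46 in cGAS WT cells and from 5.38 to 13.1 in cGAS KO cells. Its values in cGAS WT cells were nearly equal and those in cGAS KO cells more than 2-fold apart, and over the 4 backgrounds the difference was 0.51 (SE 0.203, limma adjusted p = 0.12). KDM4A, its most abundant relative here, went from 23.7 to 16.7 FPKM in vector cells, from 22.7 to 18.9 in ATG5.KD cells, from 19.3 to 19.5 in cGAS WT cells and from 24.1 to 19.7 in cGAS KO cells. It was lower with BIX in 3 of 4 backgrounds, by -0.25 on average (SE 0.128, limma adjusted p = 0.197).

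KDM4B, a gene also known to be induced by hypoxia, went from 7.11 to 4.02 FPKM in vector cells, from 7.19 to 3.69 in ATG5.KD cells, from 4.57 to 6.32 in cGAS WT cells and from 5.55 to 3.78 in cGAS KO cells. The 3 drops and the 1 gain gave an average of -0.39 (SE 0.225, limma adjusted p = 0.241). In U2OS alone the difference was -0.75 (SE 0.222, limma adjusted p = 0.0542), and it passed when genes had to reach 5 FPKM (adjusted p = 0.0404) or be above 0 in both lines (adjusted p = 0.042), within 0.0404 to 0.0991 over 7 alternatives.

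**Figure D2:**
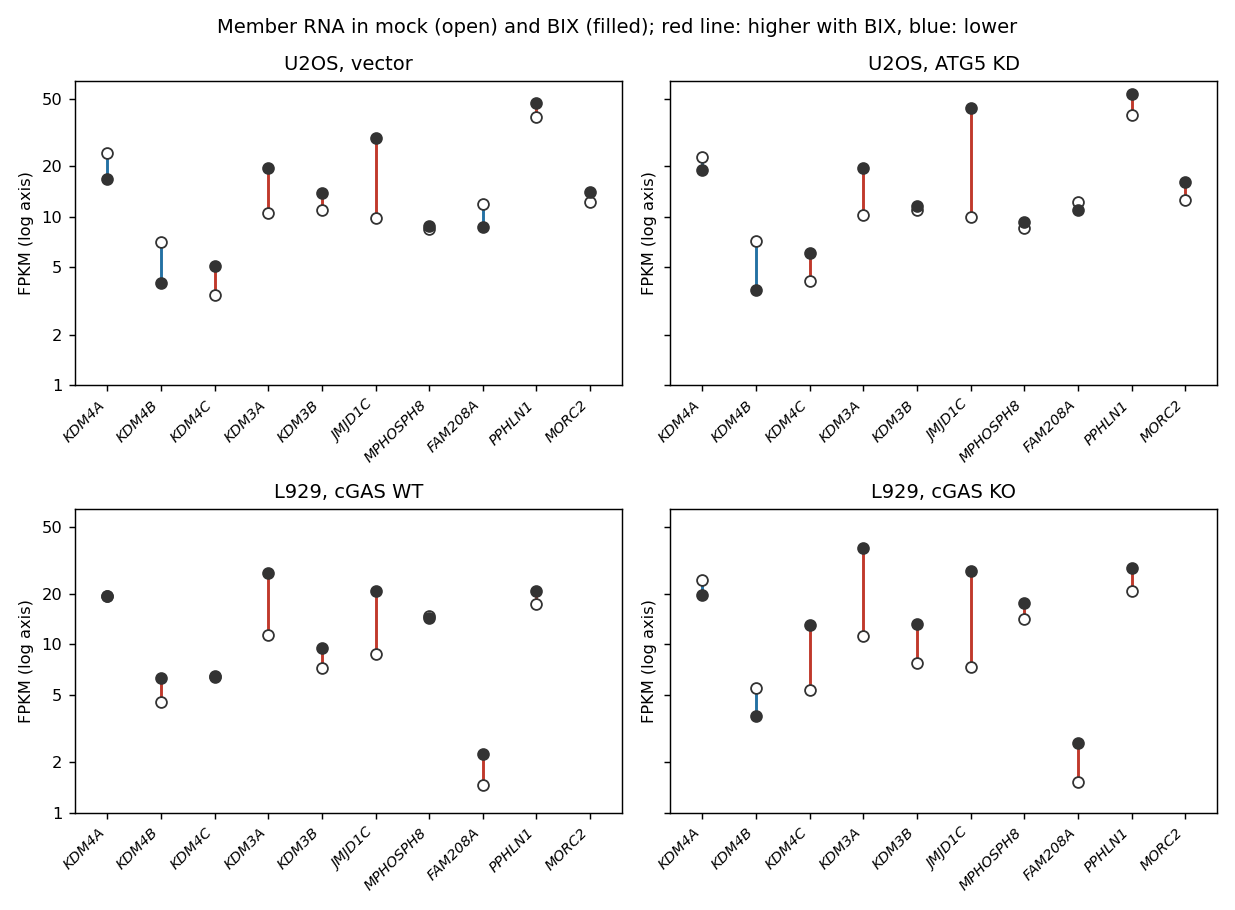
FPKM (log axis) of the members in mock (open circles) and BIX (filled circles) cells, 1 panel for each of the 4 backgrounds; each circle is 1 value, and the line joining a pair is red where BIX is higher and blue where it is lower. JMJD1C and KDM3A have red lines in each panel; Kdm4a and Kdm4c circles coincide in cGAS WT cells, and the L929 panels have no MORC2 because the mouse table has no row named Morc2.

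On the HUSH side, FAM208A went from 12.0 to 8.75 FPKM in vector cells and from 12.2 to 10.9 in ATG5.KD cells, but from 1.46 to 2.25 in cGAS WT cells and from 1.52 to 2.59 in cGAS KO cells. Both U2OS values were lower with BIX and both L929 values higher, from a level that was low in L929 to begin with. The difference was -0.28 in U2OS (SE 0.12, limma adjusted p = 0.131), and FAM208A rose by 0.45 in L929 (SE 0.12, adjusted p = 0.0399). The U2OS response minus the L929 response was -0.73 (SE 0.17, limma adjusted p = 0.042), which made FAM208A the 1 of 9 members that passed this test, where 26.7% of genes did. With genes of low FPKM kept, the adjusted p was 0.0675 for this difference (0.0349 to 0.0675 over 7 alternatives) and 0.0686 for the response in L929 (0.0302 to 0.0686).

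PPHLN1 went from 39.3 to 47.4 FPKM in vector cells, from 40.4 to 53.4 in ATG5.KD cells, from 17.4 to 20.8 in cGAS WT cells and from 20.7 to 28.5 in cGAS KO cells. It was higher with BIX in 4 of 4 backgrounds by similar steps, between 0.25 and 0.44, with an average of 0.34 that did not pass (SE 0.105, limma adjusted p = 0.0668). In L929 alone the difference was 0.35 (limma adjusted p = 0.051, 0.0451 to 0.0626 over 7 alternatives, of which 3 passed).

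MPHOSPH8 went from 8.45 to 8.86 FPKM in vector cells, from 8.57 to 9.37 in ATG5.KD cells, from 14.7 to 14.3 in cGAS WT cells and from 14.1 to 17.7 in cGAS KO cells. Its average difference was 0.11 (SE 0.124, limma adjusted p = 0.519). MORC2, measured in U2OS only and therefore outside the fit over both lines, went from 12.3 to 14.1 in vector cells and from 12.6 to 16.0 in ATG5.KD cells, or by 0.18 and 0.32 on the log2 scale. The mouse has a pair of counterparts, named here after their values were seen. Morc2a went from 31.5 to 44.9 FPKM in cGAS WT and from 27.7 to 45.9 in cGAS KO cells, and Morc2b, low in mock cells at 0.0250 and 0.0990, was at 1.10 and 1.80 with BIX.

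By a 2-fold rule on single values, with no test, 1 of 10 members was higher with BIX in vector cells (JMJD1C, against 6.34% of genes) and 1 of 10 in ATG5.KD cells (JMJD1C, against 8.02%). In cGAS WT cells 2 of 9 were (JMJD1C and KDM3A, against 7.4%), and in cGAS KO cells 3 of 9 (JMJD1C, KDM3A and KDM4C, against 13%). No member was 2-fold lower in any background, where 4.28%, 3.68%, 6.17% and 9.87% of genes were. Of 9 members 5 were higher in 4 of 4 backgrounds (KDM4C, KDM3A, KDM3B, JMJD1C and PPHLN1), as were 22.9% of genes, and none was lower in all 4, as were 27.6% of genes. The median of the 9 average differences was 0.34 and that of all genes -0.01.

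**Figure D3:**
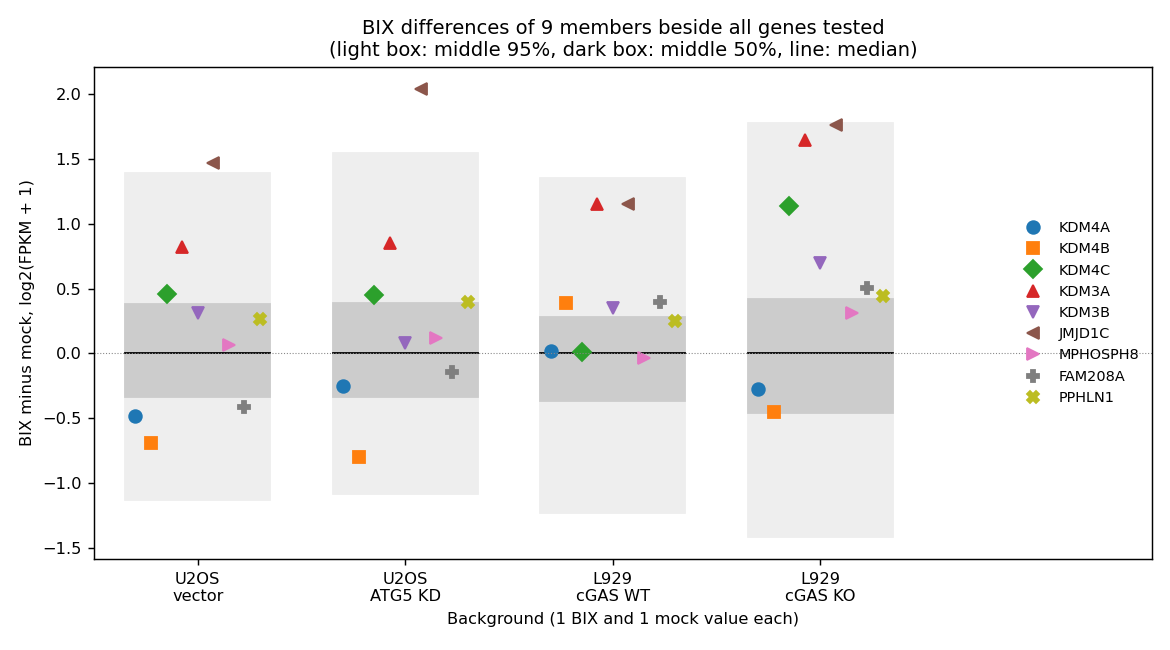
BIX minus mock on the log2(FPKM + 1) scale for 9 members (coloured symbols) in each of the 4 backgrounds, 1 difference of single values each; the light box holds the middle 95% of the 10108 genes tested, the dark box the middle 50% and the line is their median. JMJD1C lies above the light box in both U2OS backgrounds (1.47 and 2.04), and FAM208A lies below 0 in U2OS and above 0 in L929.

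Between cells labelled ATG5.KD and vector cells, 0 of 10 members differed by 2-fold in mock (0.953% of genes did) and 0 of 10 with BIX (1.85%). In mock cells the differences ran from -0.06 to 0.21, the highest being KDM4C. With BIX the highest was JMJD1C at 0.58, 44.0 against 29.2 FPKM, at rank 629 of 12252 genes, followed by FAM208A at 0.29. Between cells labelled cGAS KO and cGAS WT cells 0 of 9 passed 2-fold in mock (7.83% of genes) and 0 of 9 with BIX (11.7%). With BIX the cGAS KO library had the higher KDM4C (0.92), KDM3A (0.48) and PPHLN1 (0.43) and the lower KDM4B (-0.61), and the cGAS WT BIX library is the shallower one. These are single values, and the targeted genes did not follow their labels with BIX.

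RNA from the opposite strand could enter some of these levels, since the labels do not state strandedness. JMJD1C-AS1 went from 4.40 to 1.71 FPKM in vector cells and from 3.18 to 1.79 in ATG5.KD cells, lower with BIX where JMJD1C was higher. KDM4A-AS1 was at 1.11 and 0.624 in vector cells and at 1.39 and 0.527 in ATG5.KD cells. MORC2-AS1 was at 1.95 and 1.89, and at 2.35 and 3.06. Reads of a gene and its antisense partner cannot be told apart where they overlap.

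The enzymes that BIX inhibits were also measured. EHMT2 was listed in U2OS as a locus joined with ZBTB12, whose FPKM was 22.7 without and 10.8 with BIX in vector cells, and 20.3 and 9.02 in ATG5.KD cells. In L929 Ehmt2 went from 67.3 to 31.1 in cGAS WT and from 70.4 to 49.1 in cGAS KO cells, or by -1.09 and -0.51 (log2). It fell by 0.80 on average (SE 0.168, limma adjusted p = 0.0215), but this fit shares its spread with U2OS. There the row named EHMT2 alone was 0 in every value and added no spread, so the SE and p are understated. EHMT1 stood at 10.4 and 10.1 FPKM in vector cells, with an average difference of -0.12 over the 4 backgrounds (SE 0.12, limma adjusted p = 0.465).

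Of 5 other H3K9 demethylases tested with BIX, 2 rose in U2OS and 2 in L929 and none fell. That is 40% in each line, beside 41.1% in U2OS and 41.5% in L929 of all genes called in either direction. In L929 19% of all genes were called higher. KDM7A, a demethylase with a PHD finger, went from 1.30 to 6.09 FPKM with BIX in vector cells and from 1.00 to 5.18 in ATG5.KD cells. Its mouse counterpart Kdm7a went from 1.23 to 3.72 in cGAS WT cells and from 0.626 to 2.45 in cGAS KO cells. It rose by 1.62 in U2OS (SE 0.0906, limma adjusted p = 0.00403) and by 1.08 in L929 (SE 0.0906, adjusted p = 0.00444). PHF8 rose in U2OS by 0.79 (limma adjusted p = 0.00859), and KDM1A (LSD1), the flavin-dependent enzyme, rose in L929 by 0.47 (limma adjusted p = 0.0138).

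Of 13 other lysine demethylases and JmjC genes, 7 rose and 2 fell in U2OS with a median of 0.51, and 5 rose and 2 fell in L929 with a median of 0.23, beside the same 41.1% and 41.5% of all genes. The medians of all genes were 0.00 in both lines. KDM5B, which removes H3K4 methylation, rose by 1.18 in U2OS and 0.85 in L929, and KDM6A, which removes H3K27 methylation, by 1.08 and 0.82. KDM2A rose by 0.68 in U2OS and 0.95 in L929, and HSPBAP1 by 1.24 in U2OS. KDM5A, KDM5C, KDM6B and JMJD8 had no row of their own in the ATG5 set and were not tested with BIX. Of these, Kdm6b went from 5.76 to 36.7 FPKM in cGAS WT cells and from 6.77 to 33.2 in cGAS KO cells. Kdm5a was also higher with BIX in both L929 backgrounds, and Kdm5c and Jmjd8 were lower. The 6 demethylase members had medians of 0.33 in U2OS and 0.55 in L929.

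**Figure D4:**
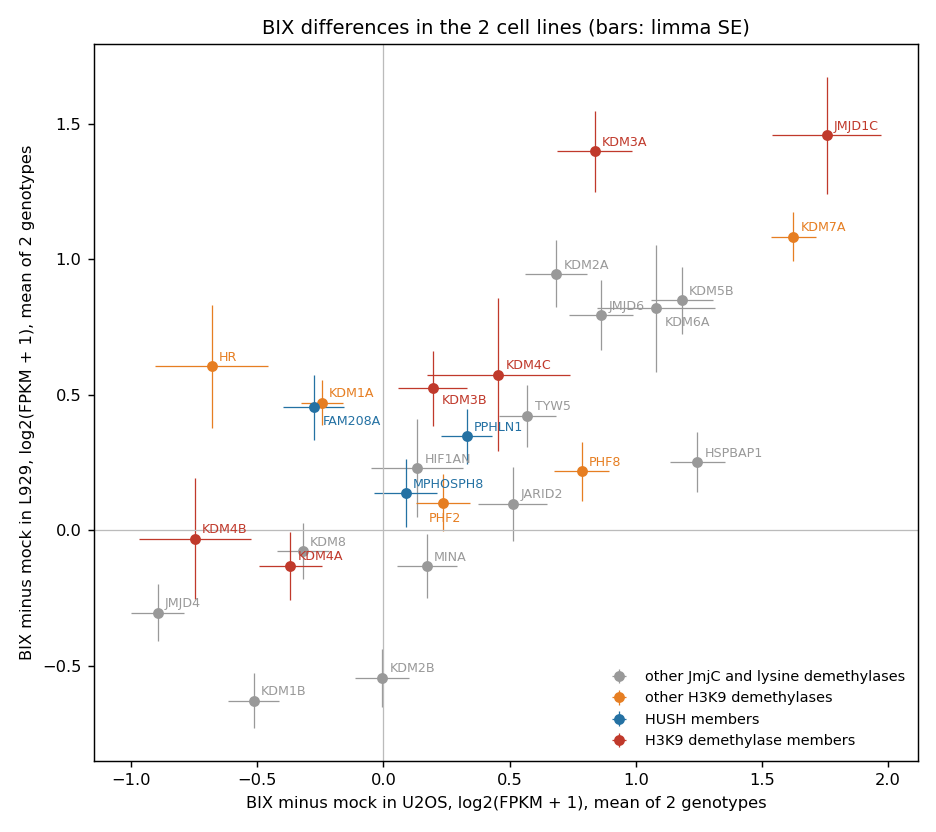
BIX minus mock on the log2(FPKM + 1) scale in L929 (vertical) against U2OS (horizontal), each the mean of 2 genotypes with its limma SE as a bar, for the demethylase members (red), HUSH members (blue), other H3K9 demethylases (orange) and other JmjC or lysine demethylases (grey). JMJD1C (1.76 and 1.46), KDM7A (1.62 and 1.08) and KDM3A (0.84 and 1.40) lie in the upper right, and FAM208A lies left of 0 and above 0.

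Of the H3K9 methyltransferases and partners, 15 had a value above 0 in each line. In U2OS, where EHMT2 has no value apart from the joined locus, 1 rose and 5 fell. In L929, where Cdyl was listed at 0, 2 rose and 4 fell. Both are 40% of the 15, near the 41.4% and 43.6% of all genes above 0 in the line. SUV39H1, a trimethylating enzyme, fell by 0.72 in U2OS (limma adjusted p = 0.0272), UHRF1, which links H3K9 and DNA methylation, fell by 0.55 in U2OS and fell by 1.73 in L929, and DNMT1, the maintenance DNA methyltransferase, fell by 0.90 in L929 (limma adjusted p = 0.0123, 0.00441 and 0.0049). CDYL rose by 0.73 in U2OS and PRDM2 by 0.95 in L929. The CDYL call, like that of EHMT2 in L929, rests on a spread to which the other line, at 0, added nothing.

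Of 8 tested HUSH relatives and nuclear RNA partners, 4 rose and 1 fell in U2OS and 0 passed limma's test in L929, where 41.1% and 41.5% of all genes passed. They were led by ZCCHC8 (1.21) and RBM7 (1.00), subunits of the nuclear exosome targeting complex, and FAM208B (0.88), the paralog of FAM208A. Of 20 targets of the hypoxia-inducible factors, a list kept because KDM3A and KDM4B are known targets, 3 rose and 2 fell in U2OS with a median of -0.03, and 7 rose and 0 fell in L929 with a median of 0.32, which is 25% and 35% of the list. VEGFA rose in both lines (1.42 and 0.79), ADM rose in U2OS (1.10) and NDRG1 and SLC2A1 in L929 (1.62 and 0.93), whereas EGLN3 fell by 1.08 in U2OS.

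The genes most like JMJD1C over the 5 log2 differences (SETDB1 knockout mean and BIX in the 4 backgrounds), by Euclidean distance among 9029 others, were PRPF38B at 0.152, RYBP at 0.384 and SAT1 at 0.441. For PPHLN1 they were GOLT1B at 0.0763, RNMTL1 at 0.118 and MAPK8 at 0.124. JMJD1C and PPHLN1 were the members of each side with the largest average BIX difference.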

How the data were processed

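Poly(A) RNA was sequenced as paired ends. Per the submitters' processing notes, the authors used FastQC, cutadapt, TopHat2 and Cufflinks with hg19 or mm10. Versions, annotation and strandedness: not given in the sources used here. Deposited FPKM values were taken unchanged, 1 table per set, with comparisons inside a table or between ratios only. For a symbol listed more than once the highest entry was kept, and short non-coding RNAs were left out.

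FPKM was used as log2(FPKM + 1). Genes needed an FPKM of at least 1 in 2 or more values. The SETDB1 groups were compared with limma 3.58.1 in R 4.3.3, with trend and moderated variance and 1 spread shared over the 6 libraries. For BIX, limma was run on the 4 log2 differences of 10108 symbols shared by human and mouse, with genotypes as replicates. Calls used a Benjamini-Hochberg adjusted p below 0.05 over all genes. Other pairs of single values were described by a 2-fold rule. The script was tested on simulated data.

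The members and the gene lists were chosen with earlier results of these data known. Named beside the members were the targets, EHMT1, EHMT2, up to 3 genes of the largest difference per list among those called, and the 3 nearest genes of JMJD1C and PPHLN1. The alternatives tried were another pseudocount, filter, scaling, trend or treatment of repeated symbols and joined loci, a replicate or line block, leaving out each library or background and, chosen after seeing the data, genes above 0 in both lines only.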

Additional observations from a re-analysis of the deposited data

Results flagged for a closer look

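FAM208A, the HUSH scaffold gene, differed between the lines in its response to BIX by a test of the difference itself. The U2OS response minus the L929 response was -0.73 on the log2 scale (SE 0.17, limma adjusted p = 0.042), with lower values in 2 of 2 U2OS backgrounds and higher values in 2 of 2 L929 backgrounds. The level in L929 mock cells was 1.46 and 1.52 FPKM, where the pseudocount of 1 makes a log2 difference smaller than that of the FPKM values. With a pseudocount of 0.1 the difference was -0.96. Of all genes 26.7% passed this test, and with genes of low FPKM kept FAM208A did not (limma adjusted p = 0.0675).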

How the results depend on the processing

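Of 46 member results with a test, 38 stayed on their side of the threshold under each alternative run for them, and no called value changed sign. For the SETDB1 knockout mean the count of members called was 0 to 1 when each library was left out in turn, the 1 being FAM208A without KO2 replicate 1. With the replicate block it was 1 (FAM208A, 0.40, limma adjusted p = 0.0418), with 508 genes called in place of 407, and it changed no other call of a member. The labels do not say that a replicate number marks a shared batch, and deviations of same-numbered libraries correlated by 0.375, 0.00399 and 0.202 between the 3 pairs of groups. Low values of same-numbered libraries shared steps (17.8% to 22.8% of genes in 1 window, against 6.89% to 8.59% for others), a hint from the data only, and the numbers were not used as pairs. With no filter on low values the count was 2 for BIX in L929 and 0 for U2OS minus L929, where limma still called 2050 genes. Over the 4 backgrounds it was 0 with the cell line as a correlated block, and 1 to 2 when each background was left out. With a 1.5-fold rule in place of 2-fold the counts were 3 in vector cells, 3 in ATG5.KD cells, 4 in cGAS KO cells and 2 for cGAS KO against WT with BIX. Under the 2-fold rule the last was 1, from 0, with a pseudocount of 0.1. Entries summed in place of the highest, and joined loci left out, changed no call of a member. With 2 libraries or 2 genotypes per group, and single values elsewhere, small differences were not detectable, and read depth is unknown.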
